A study of Homo sapiens with 2 samples.

Results

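The SLC1 family comprises 7 genes for sodium-coupled transporters that carry glutamate, aspartate or small neutral amino acids across the plasma membrane. All 7 (SLC1A1 to SLC1A7) were measured, by 8 probe sets, among 14232 genes that a probe set named by exactly 1 gene symbol. Expression was measured in J82, an established human bladder cancer cell line grown in serum-containing medium without further treatment. The cells were stained with the DNA dye Hoechst and sorted into a side population (SP), the cells that keep little dye because they pump it out, and a non-side population (NSP), the cells that retain it. Each population gave 1 human exon array, so the values below carry no replicate error and no p-value, and the spread between separate sorts is unknown. All cells are of 1 line, and a change in the share of cells expressing a gene cannot be told apart from a change in RNA per cell. The family was chosen by its SP minus NSP differences, in which SLC1A3 stood high, so these differences are a description and support nothing by themselves.

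Glutamate carriers of this family use the inward sodium gradient, together with proton entry and potassium exit, to concentrate glutamate and aspartate inside the cell. They are best known in the brain, where glial and neuronal members clear transmitter glutamate, but several also work in epithelia and in tumour cells. The neutral amino acid carriers of the family exchange alanine, serine, cysteine or glutamine for one another, and SLC1A5 is known as a main route of glutamine entry in many cancers. Glutamate taken up or made from glutamine feeds the citric acid cycle, nucleotide and aspartate synthesis, and glutathione.

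The DNA just before the start sites of the members whose differences are described most is shown first, because the SLC1A3 and SLC1A5 windows differ visibly in composition. RefSeq promoter windows of GRCh38.p14 were found for 6 of the 7 genes by symbol, with 12 windows in all. The 250 bases before each start site were searched on both strands for the GC box GGGCGG and the AP-1-type pattern TGANTCA, where N is any base. They were also searched for the core of the amino acid response element TGATGNAAN, the MYC and USF site CACGTG and the TATA box TATAAA. Matches are in capitals, all sequences run 5′ to 3′ on the gene's strand, and no searched motifs overlapped in them.
SLC1A3, outermost start site, chr5:36596338-36596587, plus strand: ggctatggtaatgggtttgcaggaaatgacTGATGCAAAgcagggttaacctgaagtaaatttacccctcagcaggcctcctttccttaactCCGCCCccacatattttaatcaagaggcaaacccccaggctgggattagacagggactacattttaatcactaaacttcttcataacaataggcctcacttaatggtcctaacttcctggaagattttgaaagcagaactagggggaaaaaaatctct
SLC1A3, the next start site, chr5:36606356-36606605, plus strand: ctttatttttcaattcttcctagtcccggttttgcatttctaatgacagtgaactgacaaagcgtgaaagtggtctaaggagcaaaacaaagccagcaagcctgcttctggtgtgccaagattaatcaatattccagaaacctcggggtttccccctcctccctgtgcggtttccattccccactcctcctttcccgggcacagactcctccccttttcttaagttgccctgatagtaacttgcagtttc
SLC1A5, outermost start site, chr19:46788595-46788844, minus strand: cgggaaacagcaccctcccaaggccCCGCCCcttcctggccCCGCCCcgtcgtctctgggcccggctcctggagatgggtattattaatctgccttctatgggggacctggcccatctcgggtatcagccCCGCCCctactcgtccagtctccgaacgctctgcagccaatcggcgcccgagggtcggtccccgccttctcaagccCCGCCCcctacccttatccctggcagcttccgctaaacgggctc

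The SLC1A3 windows were poor in G and C, at 43.2%, 47.2% and 46.4% for its 3 start sites, against a median of 58% over 35114 windows of the same length. The SLC1A5 windows held 66.8%, 69.2% and 59.6%, and the single SLC1A1 window 74.4%. Low shares were not particular to SLC1A3. The SLC1A7 window held 44.8% and the 2 SLC1A4 windows 48.4% and 79.6%, while the SLC1A6 windows held 63.2% and 76.0%. The outermost SLC1A3 window held 1 CpG and the SLC1A7 window 2, whereas the outermost window of SLC1A4 held 12, that of SLC1A5 19 and that of SLC1A1 24. The response element core lay 220 bases before the outermost SLC1A3 start, as TGATGCAAA, and 3.13% of all windows hold such a match. The same core lay 97 bases before the third SLC1A5 start, as TGATGCAAG. The third SLC1A3 window, not shown, matched the AP-1-type pattern at 128 bases (TGAATCA) and 26 bases (TGAGTCA) before the start. Matches to this pattern, with any middle base, were found in 6.57% of windows. GC boxes occurred once in the outermost SLC1A3 window, 4 times in that of SLC1A5 and 2 times in that of SLC1A1. The second SLC1A4 window held 4 and the second SLC1A6 window 3, and 42.6% of windows hold one. CACGTG, present in 6.35% of windows, occurred 50 bases before the second SLC1A5 start and 60 bases before the SLC1A7 start. No window of the 6 genes held TATAAA, which 10.7% of all windows hold. These matches describe letters and were not tested for any effect on the values below.

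SLC1A3 was the member furthest apart between the populations. It encodes EAAT1, also called GLAST, a high-affinity glutamate and aspartate carrier known mainly from astrocytes. Its log2 signal was 9.97 in SP and 8.58 in NSP, a difference of 1.40, or 2.63-fold higher in SP. Both values lay above 7.44, the median of all values in the table, which is used here as a floor for adequate signal. Among the 7549 genes whose higher value reached that floor, SLC1A3 had the 10th highest difference. Its value rests on 1 probe set, so no second measurement within the array bears on it.

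SLC1A1 differed in the opposite direction and was the next largest difference in the family. It encodes EAAT3, or EAAC1, a glutamate carrier of neurons and of kidney and gut epithelium that also carries cysteine. Its log2 signal was 10.60 in SP and 11.04 in NSP, a difference of -0.43, which is 1.35-fold lower in SP. Of the 7549 genes at or above the floor, 4.48% had a difference at least as low. The 2 glutamate carriers with adequate signal therefore lay on opposite sides of 0.

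The other 3 glutamate carriers were dim on both arrays. SLC1A2 encodes EAAT2, or GLT-1, the main glutamate carrier of the forebrain, and its signal was 5.18 in SP and 5.22 in NSP. SLC1A6, which encodes EAAT4 of cerebellar Purkinje cells, had 6.21 in SP and 6.21 in NSP, the same to every printed decimal. Such identity occurred for 223 of 22011 probe sets. SLC1A7 encodes EAAT5, known from the retina, and its signal was 6.84 in SP and 6.81 in NSP. All 3 lay under the floor, and their differences lay between -0.04 and 0.03. Low signal on an array without a detection call does not show that the transcripts were missing.

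**Figure D1:**
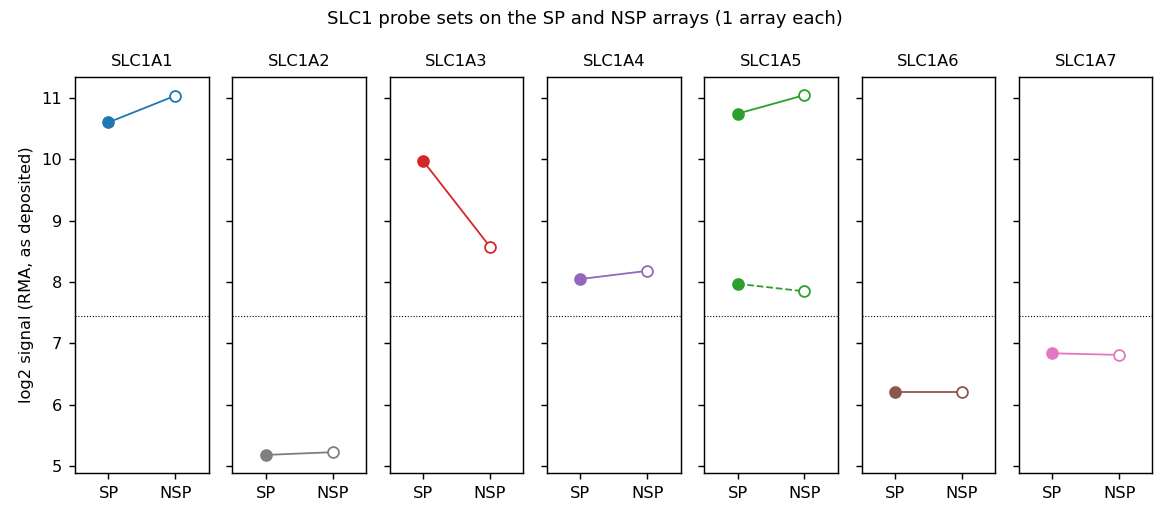
Log2 signal of each SLC1 probe set (vertical axis) on the SP array (filled points, left) and the NSP array (open points, right), with the floor of 7.44 as a dotted line and the dimmer SLC1A5 probe set dashed. SLC1A3 has 9.97 in SP and 8.58 in NSP, while SLC1A1 has 10.60 and 11.04. Heights compare the arrays within a probe set, not one gene with another.

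The neutral amino acid carriers differed little. SLC1A4, which encodes ASCT1, a carrier of alanine, serine, cysteine and threonine, had 8.05 in SP and 8.18 in NSP, a difference of -0.13. SLC1A5, which encodes ASCT2, averaged 9.36 in SP and 9.45 in NSP over its 2 probe sets, a difference of -0.09. The median over all genes at or above the floor was -0.05, so both genes lay close to the middle of the table.

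The 2 SLC1A5 probe sets disagreed in direction. The brighter one had 10.74 in SP and 11.05 in NSP, a difference of -0.30, or 1.23-fold lower in SP. The dimmer one had 7.97 in SP and 7.85 in NSP, a difference of 0.12. Probe set identifiers on this array run along the chromosomes strand by strand, and the position in that order separated them. All 16 annotated neighbours of the dimmer probe set whose strand is known from RefSeq are genes of the plus strand, although SLC1A5 lies on the minus strand. All 14 such neighbours of the brighter probe set are genes of the minus strand. Of the other members, SLC1A1, SLC1A3, SLC1A4, SLC1A6 and SLC1A7 each had neighbours on their own strand only. No strand was found for SLC1A2 in the source used, and its 14 such neighbours are all genes of the minus strand. What RNA the dimmer SLC1A5 probe set measured was not tested, and with the brighter probe set alone the gene's difference was -0.30.

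Counted together, 1 of the 4 members with adequate signal was at least 1.5-fold higher in SP (SLC1A3) and none was at least 1.5-fold lower. By the same rule 3.10% of the 7549 genes were higher and 1.43% lower, and 0.609% were at least 2-fold higher, as SLC1A3 was. Because the family was chosen on this contrast, the count says nothing about the family. The member nearest to the threshold from inside was SLC1A3, far above it, and the nearest outside was SLC1A1 at 1.35-fold. Of all 7 members 2 had a higher value in SP, 4 a lower one and 1 the same, and the median difference was -0.04, against 0.00 over all 14232 genes. Among the 4 with adequate signal the median was -0.11. That median uses the SLC1A5 mean of -0.09 and was not recomputed with its brighter probe set, which gave -0.30.

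**Figure D2:**
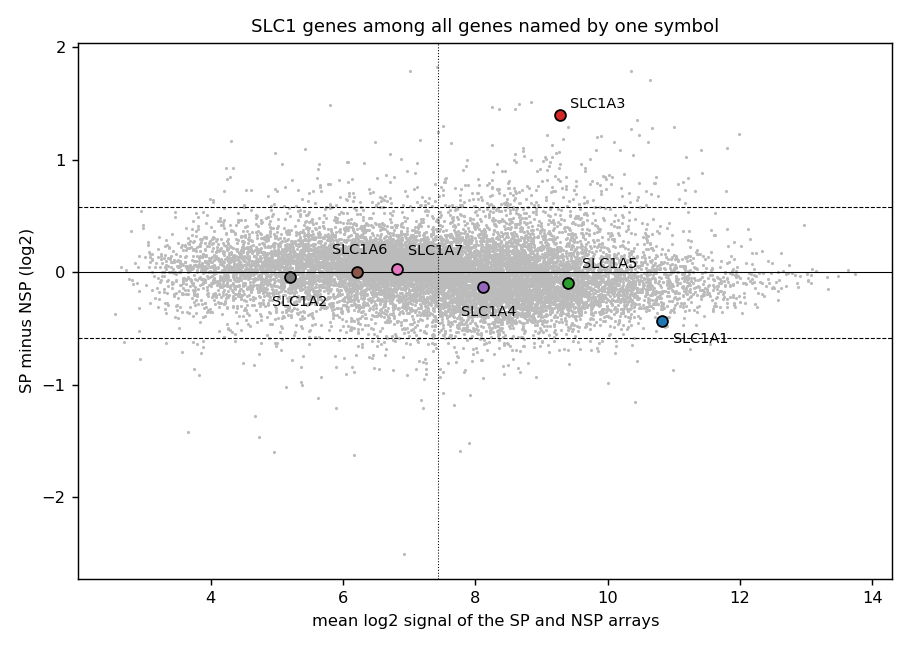
Difference SP minus NSP on the log2 scale (vertical axis) against the mean log2 signal of the arrays (horizontal axis) for 14232 genes (grey), with the SLC1 genes marked. Dashed lines mark 1.5-fold, and the dotted line marks the floor of 7.44. SLC1A3 at 1.40 lies among the few highest points, SLC1A1 at -0.43 lies below 0 inside the 1.5-fold lines, and the other members lie between -0.13 and 0.03.

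The genes whose pair of values lay nearest to that of SLC1A3 were found by Euclidean distance over the 2 arrays among 14231 other genes. RLF, a zinc finger gene, was nearest at a distance of 0.16, with 9.92 in SP and 8.73 in NSP. HIVEP1, which encodes a protein that binds kappa-B motifs, followed at 0.19, with 10.05 in SP and 8.75 in NSP. SMAD3, a transducer of TGF-beta signals, was at 0.23, with 9.80 in SP and 8.73 in NSP. With 2 arrays this likeness amounts to similar brightness on each array.

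Other carriers of amino acids, outside the SLC1 family, were mostly close to 0, with larger differences in a few. Of 36 listed genes 32 were measured and 16 reached the floor, and these split into 8 with a higher and 8 with a lower value in SP. The list's median difference was 0.05 over the measured genes and -0.03 over those at the floor. Of the 16, 2 were at least 1.5-fold higher and none was as much lower, beside 3.10% and 1.43% of all genes with adequate signal. SLC38A2, which encodes SNAT2, a sodium-coupled carrier of glutamine and alanine whose gene is known to respond to amino acid shortage, had 11.54 in SP and 10.74 in NSP, or 1.74-fold higher. SLC7A2, a carrier of arginine and lysine, had 8.36 in SP and 7.71 in NSP, or 1.57-fold higher. SLC7A8, which encodes the neutral amino acid exchanger LAT2, had 7.56 in SP and 7.01 in NSP and fell just short of the threshold at 1.46-fold.

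Carriers that work beside the SLC1 proteins in tumour cells showed smaller differences. SLC43A1, a carrier of large neutral amino acids, had 8.13 in SP and 8.53 in NSP, a difference of -0.40. SLC7A11, the cystine and glutamate exchanger that exports glutamate, had 11.66 in SP and 11.97 in NSP, a difference of -0.31. Its partner SLC3A2 had 11.57 in SP and 11.64 in NSP. SLC7A5, which encodes LAT1 and can use glutamine brought in by SLC1A5 as its exchange substrate, had 11.32 in SP and 11.28 in NSP. Neither SLC3A2 nor SLC7A5 differed by as much as 0.1.

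Enzymes that make or use glutamate and glutamine showed no 1.5-fold difference. Of 26 listed genes 16 were measured and 13 reached the floor, with 4 higher and 9 lower in SP and a median difference of -0.03 over the 16. For comparison, a lower value in SP was found for 59.6% of all genes with adequate signal. Of these same genes 3.10% were at least 1.5-fold higher and 1.43% as much lower, so 13 genes can easily hold none. GFPT1, which spends glutamine in hexosamine synthesis, had 10.59 in SP and 10.25 in NSP, a difference of 0.34. PPAT, which spends it in purine synthesis, had 7.81 in SP and 7.53 in NSP, a difference of 0.28. GLUL, glutamine synthetase, had 7.85 in SP and 8.12 in NSP, a difference of -0.27, and PSAT1 of serine synthesis had 10.25 in SP and 10.50 in NSP.

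Enzymes of glutathione, a tripeptide that contains glutamate and cysteine, also stayed below 1.5-fold. Of 12 listed genes 11 were measured and 9 reached the floor, split into 5 with a higher and 4 with a lower value in SP. The median over the 11 was 0.08. With 3.10% of all genes with adequate signal at least 1.5-fold higher and 1.43% as much lower, 9 genes can easily hold none. GCLC, the catalytic subunit that joins glutamate to cysteine, had 8.44 in SP and 8.09 in NSP, a difference of 0.34. GSR, which regenerates reduced glutathione, had 11.36 in SP and 11.07 in NSP, a difference of 0.29. GGT7 had 8.98 in SP and 9.28 in NSP, and GGCT, which releases pyroglutamate from glutamyl peptides, had 8.49 in SP and 8.75 in NSP.

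Among genes for proteins reported to bind SLC1 carriers or to control their surface level, 1, SGK1, was at least 1.5-fold higher in SP. SGK1 encodes a serum- and glucocorticoid-induced kinase that raises the activity of several glutamate carriers when expressed with them in Xenopus oocytes. Its signal was 11.95 in SP and 10.87 in NSP, or 2.12-fold higher. NEDD4L, a ubiquitin ligase that SGK1 phosphorylates, had 8.28 in SP and 7.77 in NSP, or 1.42-fold higher. AJUBA, a LIM protein that binds EAAT2, had 8.10 in SP and 8.42 in NSP, a difference of -0.32, and PICK1, a PDZ protein, had 8.12 in SP and 8.29 in NSP. Of 10 listed genes 9 were measured and 8 reached the floor, with 1 at least 1.5-fold higher, none as much lower and a median difference of -0.02 over the 9. Over all genes with adequate signal the shares were 3.10% higher and 1.43% lower.

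Subunits of the sodium pump, which maintains the gradient that SLC1 carriers draw on, gave no 1.5-fold difference. Of 13 listed genes 9 were measured and 4 reached the floor, and none of the catalytic alpha subunit genes had a single-symbol probe set. ATP1B1, a beta subunit, had 11.14 in SP and 10.71 in NSP, or 1.35-fold higher. FXYD5, a regulatory subunit, had 8.62 in SP and 8.96 in NSP, a difference of -0.34. ATP1B3 had 9.51 in SP and 9.69 in NSP, and FXYD2 had 7.50 in SP and 7.51 in NSP. The list's median was 0.06 over the 9. By the same rule 3.10% of all genes with adequate signal were higher and 1.43% lower, so a list with 4 such genes can easily hold none.

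None of the 22 measured glutamate receptor genes and none of the 3 vesicular glutamate transporter genes reached the floor. The receptor genes ran from 4.14 to 7.39 in SP and from 4.19 to 7.43 in NSP, with a median difference of 0.02. The vesicular transporter genes ran from 4.81 to 6.65 in SP and from 4.61 to 6.55 in NSP.

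**Figure D3:**
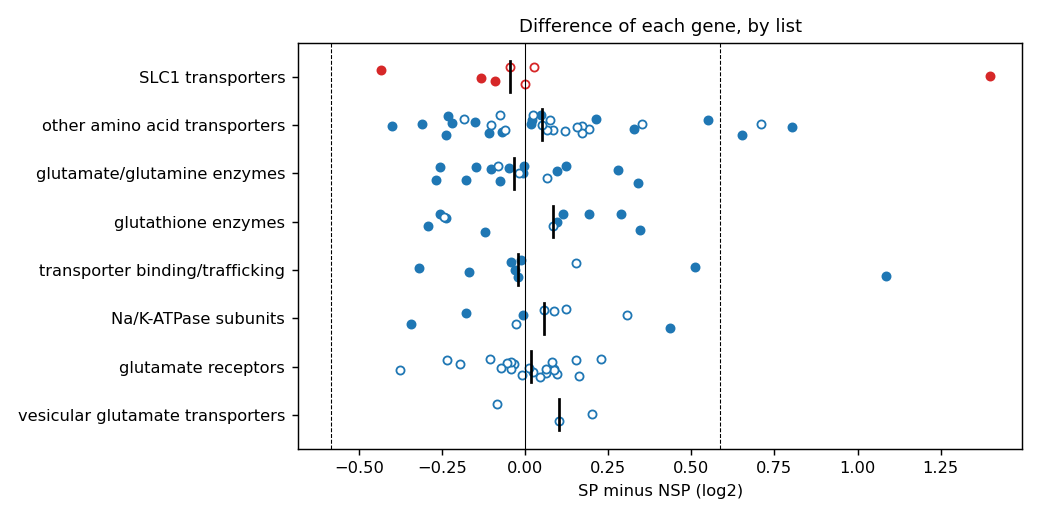
Difference SP minus NSP on the log2 scale (horizontal axis) of each measured gene, by list (vertical axis, points spread for sight). Filled points reach the floor of 7.44, open points do not, black bars are list medians and dashed lines mark 1.5-fold. SLC1A3 at 1.40 and SGK1 at 1.09 are the points furthest to the right, and all receptor and vesicular transporter points are open.

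Markers of cell types bear on what the sorted cells were. Of 8 astrocyte markers, cells in which SLC1A3 is best known, 1 reached the floor. That gene, GJA1, had 8.76 in SP and 9.15 in NSP, while the defining astrocyte genes GFAP, with 7.13 in SP and 7.02 in NSP, and AQP4, with 4.45 in SP and 4.39 in NSP, stayed under it. The list's median difference was 0.02, and its signals ran from 4.20 to 8.76 in SP and from 3.88 to 9.15 in NSP. Of 12 epithelial and urothelial markers 5 reached the floor, all of them higher in SP, KRT7 by only 0.02. For comparison, 3027 of the 7549 genes with adequate signal were higher in SP. Of all 12 markers 9 were higher, 2 lower (CDH1 at -0.23 and UPK3A at -0.18) and 1 the same, with a list median of 0.19. KRT8 had 13.18 in SP and 12.77 in NSP and PPARG 9.20 in SP and 8.50 in NSP. EPCAM, CDH1, GATA3 and the uroplakin genes lay under the floor. Of the 5 that reached it 1, PPARG, was at least 1.5-fold higher, at 1.62-fold, and none was as much lower. Over all genes with adequate signal the shares were 3.10% higher and 1.43% lower. All 6 mesenchymal markers reached the floor, with differences between -0.04 and 0.17. Immune markers reached it for 2 of 6, CD14 and CD68, with PTPRC at 3.74 in SP and 3.80 in NSP, endothelial markers for 1 of 6, and erythroid and platelet markers for none of 3. The part that any of these genes had in the SLC1A3 difference was not tested.

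A list of 3 efflux transporter genes linked to side populations was read on the same arrays. ABCB1 had 9.87 in SP and 9.17 in NSP, ABCC1 10.50 in SP and 10.12 in NSP, and ABCG2 6.14 in SP and 5.69 in NSP, the last under the floor. All 3 were higher in SP, by less than SLC1A3. Of all 14232 genes 7007 were also higher, and of the 7549 with adequate signal 3027. By the 1.5-fold rule only ABCB1 was called, at 1.62-fold, with ABCC1 at 1.30-fold. The rule called 3.10% of the 7549 genes higher. Which pumps kept the dye out of these cells was not tested. The arrays had medians of 7.43 in SP and 7.44 in NSP over 22011 probe sets, with values from 2.15 to 13.99 in SP and from 2.11 to 13.93 in NSP.

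Changing the processing moved the members' differences little. SLC1A3 ran from 1.40 to 1.48 and SLC1A1 from -0.43 to -0.35 over the 5 other settings and the values as deposited. The signs of SLC1A6 and SLC1A7, both within 0.06 of 0, changed with the scaling.

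**Figure D4:**
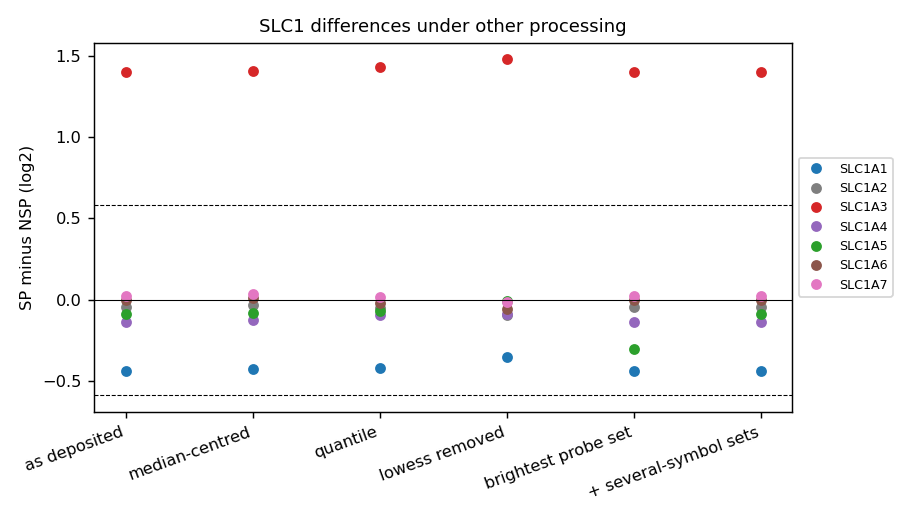
Difference SP minus NSP on the log2 scale (vertical axis) of each SLC1 gene with the values as deposited and under 5 other settings (horizontal axis), with dashed lines at 1.5-fold. SLC1A3 stays between 1.40 and 1.48 in every setting shown, and SLC1A5 is at -0.30 with its brightest probe set and at -0.09 as deposited.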

How the data were processed

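Log2 signals per probe set of 2 human exon arrays (SP and NSP of J82 cells, 1 array each) were taken as the authors deposited them. Per the submitters' processing notes they were made with RMA and Partek. The sources used here do not give versions, genome build, probe set definition or filters, and the log2 scale was inferred from RMA and the range of the values. The table holds no intensities or detection calls, and 2 arrays limit the precision.

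Of 22011 probe sets, 14432 had 1 gene symbol in the platform annotation, 2408 several and 5171 none. Symbols were updated by Entrez identifier with RefSeq of GRCh38.p14 (14404 matched). A gene's value is the mean of its single-symbol probe sets, and the difference is SP minus NSP, with folds as 2 to the power of its size. A gene counted as called at 1.5-fold if at least 1 of its values was at or above 7.44, the median over the whole table. No test was run, because each population has 1 sample. Members and lists were chosen with earlier results of these data known. Named are all members, from each list the up to 4 genes at or above that floor that differed most, SLC3A2, SLC7A5, SLC7A11 and GLUL in any case, the 3 genes nearest to SLC1A3, the neighbours of each member, and markers. The neighbours are given in the closing section. One further non-member gene that this naming rule asked for is not reported here. A planned comparison of protein sequences was not made, since no protein table was used here. The call rule and scalings were tested on simulated data. Python 3.11.15, numpy 2.4.6, pandas 2.3.3, statsmodels 0.14.6 and matplotlib 3.10.9 were used.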

Additional observations from a re-analysis of the deposited data

How the results depend on the processing

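Alternatives were centring each array on its median, quantile normalisation, removal of a lowess trend on signal (span 0.3), the brightest probe set per gene and the addition of probe sets with several symbols, none of which named an SLC1 gene. Of the 35 member differences recomputed, 34 moved by less than 0.1, and SLC1A5 moved to -0.30 with its brightest probe set, since its dimmer probe set differs in sign. Some of these could not move. The added probe sets named no member, and only SLC1A5 has more than 1 probe set. The count of members at least 1.5-fold higher in SP was 1 under each of the 10 alternatives for it, including no floor, a floor at the 25th percentile (6.09), a floor for both values and a 2-fold threshold. The floor and fold settings could not change it. Both SLC1A3 values lay above the floor, its difference was 2.63-fold, and the only other member higher in SP, SLC1A7, was at 1.02-fold. The count of members lower in SP was 0 under 9 of them and 1 at the lowest fold threshold tried, which SLC1A1 passes. The members' median difference ran from -0.05 to -0.03, and was -0.07 without SLC1A3, an alternative chosen after seeing the data. With all members, that median was the value of a gene under the floor, SLC1A2 or, with the lowess trend removed, SLC1A6. Its narrow range therefore says little about the members with adequate signal. All 56 recomputed values of the pathway lists stayed within 0.1 (medians) or 1.5 times (counts), the largest change of a count being 3 other amino acid transporters at least 1.5-fold higher with no floor, against 2 with it. The median of all genes moved by at most 0.01 under these scalings. No paired analysis was possible because each population has 1 array. Missing replicates, and no detection call for the 3 dim members, are the main limits.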

Other observations

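The nearest measured genes on either side of each SLC1 gene, by RefSeq order on GRCh38.p14, were set beside it as a description. NIPBL, a cohesin loader gene and the neighbour of SLC1A3 on one side, had 8.62 in SP and 8.16 in NSP, a difference of 0.45, against 1.40 for SLC1A3. RANBP3L, on the other side, was dim at 4.04 in SP and 4.19 in NSP. Of the neighbours of SLC1A1, GLIS3, which starts on the opposite strand right beside it, had 9.38 in SP and 9.35 in NSP, while SLC1A1 had 10.60 in SP and 11.04 in NSP. SPATA6L on its other side was dim, at 5.15 in SP and 5.57 in NSP. Both neighbours of SLC1A5 were lower in SP by amounts close to that of its brighter probe set. STRN4 had 9.76 in SP and 10.11 in NSP, a difference of -0.35, and AP2S1, an adaptor subunit of clathrin-mediated uptake, had 10.46 in SP and 10.80 in NSP, a difference of -0.33. For SLC1A4, SERTAD2 had 7.95 in SP and 7.97 in NSP, and CEP68, a centrosomal gene, had 7.30 in SP and 7.63 in NSP. CD44, which encodes a hyaluronan receptor and lies beside SLC1A2, had 8.15 in SP and 8.09 in NSP. The remaining 5 neighbours, of SLC1A2, SLC1A6 and SLC1A7, were under the floor, with differences between -0.24 and 0.18.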
